A study of Oryza sativa with 2 samples.

Results

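Proline and glycine betaine metabolism is described here through genes for the enzymes that make and break down proline and that carry out the last step of glycine betaine synthesis. The genes were chosen by locus identifier from a list of 8, and 7 of them were measured among the 55986 gene models of the deposited table: P5CS1, P5CS2, P5CR, OAT, ProDH, BADH1 and BADH2. The eighth, P5CDH (LOC_Os05g45960), was not analysed here. Messenger RNA came from 14-day seedlings of the rice cultivar CARI Dhan 7. The control seedlings had germinated and grown in distilled water (0 dS/m), and the salinity seedlings in a mixture of sodium chloride, sodium sulfate, calcium chloride and magnesium sulfate with an electrical conductivity of 6 dS/m. Exposure to salt therefore began with germination. The sources used here do not say how many seedlings went into a sample. With 1 library per group, none of the differences could be checked against replicates, and no p-value is given.

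Proline is a compatible solute that many plants accumulate under salt and drought. It is made from glutamate in the cytosol and plastid by pyrroline-5-carboxylate synthetase (P5CS), a bifunctional kinase and reductase, followed by pyrroline-5-carboxylate reductase (P5CR). Ornithine aminotransferase (OAT) forms the same intermediate from ornithine, and proline dehydrogenase (ProDH) begins proline breakdown in mitochondria. Betaine aldehyde dehydrogenase (BADH) oxidises betaine aldehyde to glycine betaine, a solute that rice accumulates little of, and also acts on other aminoaldehydes.

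The control library held 45.36 and the salinity library 15.03 counts in units of 1e6. All salinity counts above 0 were even, against 61.73% in the control, so counting intervals were computed on an inferred read-pair scale on which 1 pair equals 2 counts of the control or 4 of the salinity library. Levels are given as CPM, counts per 1e6 counts after scaling by trimmed mean of M-values (TMM). A gene is called higher or lower in the salinity library when the whole 95% counting interval of its ratio lies beyond 2-fold, and is otherwise said to be within the range. The 3 leaf markers (CAB1R, CAB2R, RBCS2) and 3 root markers (Lsi1, Lsi2, NRT2.1) were detected in both libraries. Summed leaf markers were at 23350 CPM (control) and 36260 CPM (salinity), and root markers at 587.7 and 662.3 CPM. Of the leaf markers, CAB1R was at 6747 and 11510 CPM, CAB2R at 8605 and 8602 CPM and RBCS2 at 8002 and 16150 CPM. All 3 were within the range, but RBCS2 was called higher without the read-pair scale. The names CAB1R and RBCS2 were not matched to RefSeq, and the summed leaf difference came from them. The matched leaf marker, CAB2R, was nearly level. Of the root markers, Lsi1 was at 359.6 and 502.6 CPM and Lsi2 at 224.1 and 144 CPM, both within the range, and NRT2.1 was higher, at 3.96 and 15.69 CPM. The 5 grain markers (AMY1A, AMY3D, AMY3E, GLUA1, GLUA2) summed to 1427 CPM (control) and 10.17 CPM (salinity), and AMY1A and GLUA1 had 0 salinity counts. AMY1A alone gave 1390 CPM of the control sum, and without it the sums were 37.09 and 10.17 CPM. Of the 5, AMY1A and AMY3E were lower and the other 3 were within the range. The part of these marker differences in the results below was not tested. In bulk seedlings, fewer cells of a type and less RNA per cell cannot be told apart.

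Transcripts for the entry steps of proline synthesis were more abundant in the salinity library, and the transcript for the first step of breakdown was less abundant. P5CS1, P5CS2 and OAT were higher, by 3.19-fold, 6.63-fold and 2.36-fold, ProDH was lower by 2.69-fold, and P5CR, BADH1 and BADH2 were within the range. That is 3 of 7 genes higher and 1 of 7 lower, where the same rule called 7.97% of the 26638 gene models tested higher and 5.17% lower (13.1% in either direction). From the counts as deposited, the same 3 genes and 1 gene were called, where the rule called 10.6% of gene models higher and 10.3% lower. The median log2 ratio of the 7 genes was 0.34, against -0.08 for all gene models tested. Scaling by total counts shifted the median of all gene models by -0.25, and then the OAT call was lost and 2 genes were higher. Under that scaling, 1639 of the 26638 gene models tested were higher and 2127 lower.

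**Figure D1:**
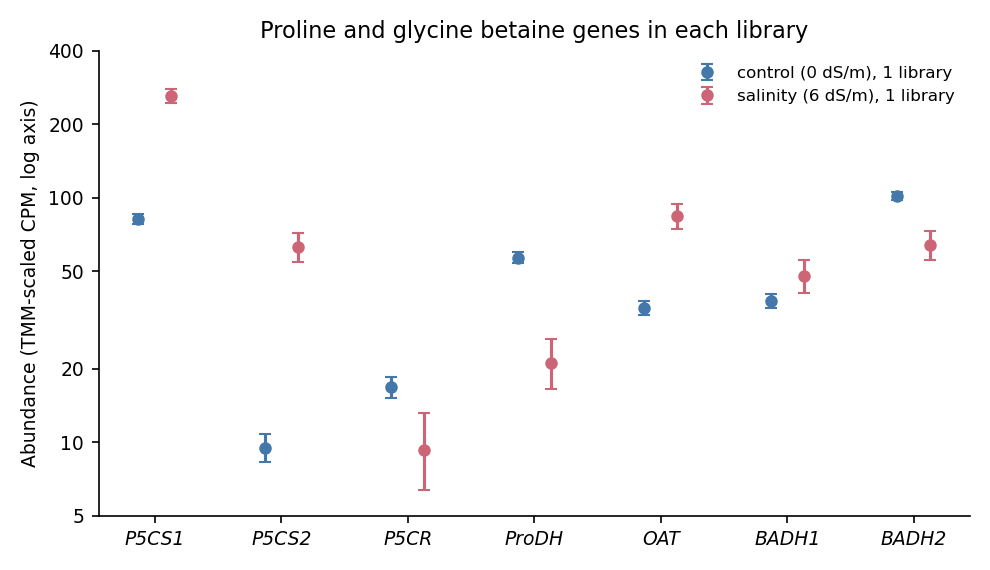
Abundance of the 7 genes in the control (blue) and salinity (red) library, in TMM-scaled CPM on a log axis; bars are exact 95% Poisson intervals on the read-pair scale and cover counting error only. P5CS1, P5CS2 and OAT lie higher in the salinity library and ProDH lower by more than the size rule asks. P5CR, BADH1 and BADH2 are within the range.

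The glutamate route begins with P5CS, for which rice has a pair of genes. P5CS1 (LOC_Os05g38150, chromosome 5, 22374029 to 22381039, minus strand, 20 exons) had 4060 control and 3602 salinity counts. Its control level was 81.97 CPM (counting interval 78.44 to 85.61) and its salinity level 261.7 CPM (244.9 to 279.3), which gives a log2 ratio of 1.67 (interval 1.56 to 1.79). Of all gene models tested, 8.3% had a higher ratio. P5CS2 (LOC_Os01g62900, chromosome 1, 36430978 to 36440843, plus strand, 21 exons) had 470 control and 866 salinity counts. Its levels were 9.49 CPM (8.32 to 10.8) in control and 62.91 CPM (54.81 to 71.87) in salinity seedlings. Its log2 ratio of 2.73 (interval 2.46 to 3.002) was exceeded by 3.63% of gene models. P5CS2 was the less abundant of the pair in both libraries and had the larger ratio.

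Summed, the P5CS pair was at 91.46 CPM in control and 324.6 CPM in salinity seedlings, 3.55-fold higher in the latter. P5CS2 supplied 10.4% of the pair's read pairs in the control (Clopper-Pearson interval 9.15 to 11.7) and 19.4% in the salinity library (17.1 to 21.8). Per exon length, the level of P5CS1 was 9.94 times that of P5CS2 in the control and 4.79 times in the salinity library. The log2 change of that count ratio was -1.05 (interval -1.35 to -0.75), a value that does not depend on how the libraries are scaled. Of the exonic bases of P5CS2, 1045 (30.4%) are shared with LOC_Os01g62910 on the opposite strand. That model had 160 control and 72 salinity counts. The sources used here do not say whether counting used strand or how it treated reads that fit both members of a gene pair, so reads from the shared bases may have been split, lost or assigned to the wrong model.

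P5CR (LOC_Os01g71990, chromosome 1, 41718016 to 41721574, minus strand), whose product completes proline synthesis, did not go the way of the P5CS pair. It had 830 control and 128 salinity counts, 16.76 CPM (15.18 to 18.45) against 9.3 CPM (6.36 to 13.1), with a ratio of -0.84 on the log2 scale (interval -1.42 to -0.33), within the range of the size rule. The count ratio of the P5CS pair to P5CR had a log2 change of 2.68 (interval 2.15 to 3.25), a comparison added after its values were seen. The P5CR value is uncertain, because 989 of its 1945 exonic bases (50.8%) are shared with LOC_Os01g71980 on the opposite strand. That overlapping model was at 21.99 CPM (control) and 42.43 CPM (salinity). Its log2 ratio of 0.95 (interval 0.68 to 1.21) and that of P5CR had opposite signs.

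OAT (LOC_Os03g44150, chromosome 3, 24810051 to 24818067, minus strand), which links ornithine to the proline intermediate, had 1760 control and 1156 salinity counts. The control level was 35.53 CPM (33.22 to 37.96) and the salinity level 83.98 CPM (74.57 to 94.24). The log2 ratio was 1.24 (interval 1.04 to 1.43), with the lower bound close to the 2-fold limit. With total counts it was 0.99 (interval 0.79 to 1.18), and with control reads thinned to the depth of the other library 1.27 (interval 0.98 to 1.57), so neither was called. Per exon length, the level of OAT was 0.688 times that of P5CS1 in the control and 0.51 times in the salinity library, a log2 change of the count ratio of -0.43 (interval -0.66 to -0.21). OAT was therefore higher by less than P5CS1, by more than counting error.

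**Figure D2:**
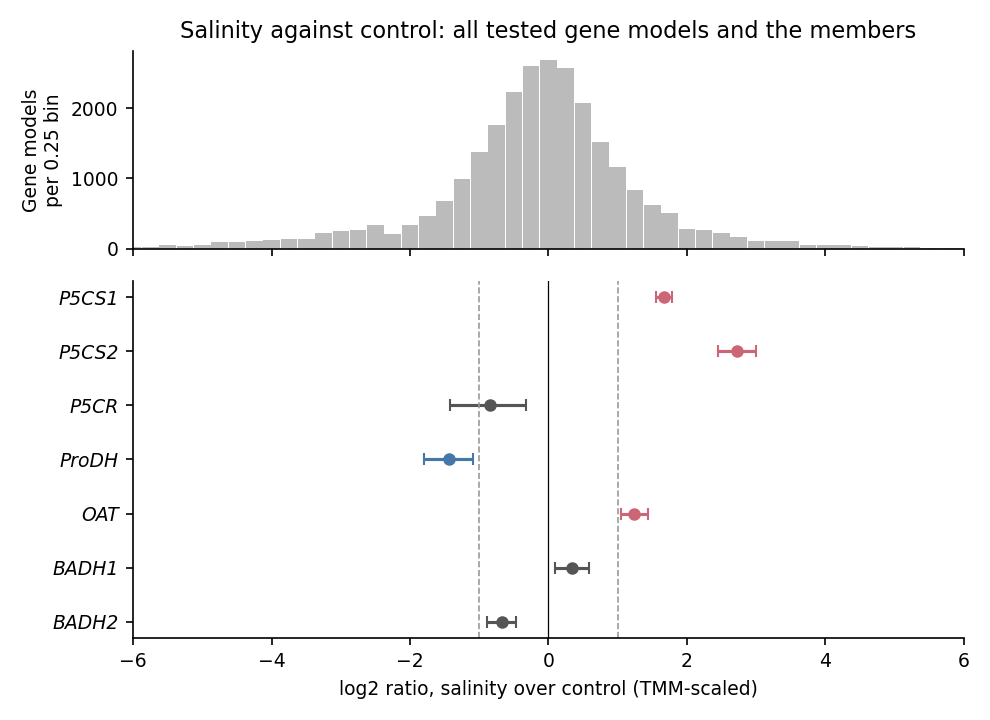
Log2 ratio of salinity over control for all 26638 gene models tested (grey, models per bin, drawn from -6 to 6) and for the 7 genes (points with 95% counting intervals). Dashed lines mark 2-fold. P5CS1, P5CS2 and OAT lie wholly above the upper line, ProDH wholly below the lower one.

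Proline breakdown is represented by ProDH (LOC_Os10g40360, chromosome 10, 21617952 to 21620589, plus strand, 3 exons). It had 2816 control and 290 salinity counts, which are 56.85 CPM (53.92 to 59.9) and 21.07 CPM (16.5 to 26.51). The log2 ratio was -1.43 (interval -1.79 to -1.09), and 14.0% of gene models tested had a lower one. The P5CS pair and ProDH were nearly level in the control and far apart in the salinity library. The summed per-length level of the P5CS pair was 1.1 times that of ProDH in the control and 10.4 times in the salinity library. This does not hold for all synthesis transcripts, since P5CR was below ProDH per exon length in both libraries. The count ratio of the P5CS pair to ProDH was 9.58-fold higher in the salinity library (log2 change 3.26, interval 2.91 to 3.65), whatever the library scaling.

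**Figure D3:**
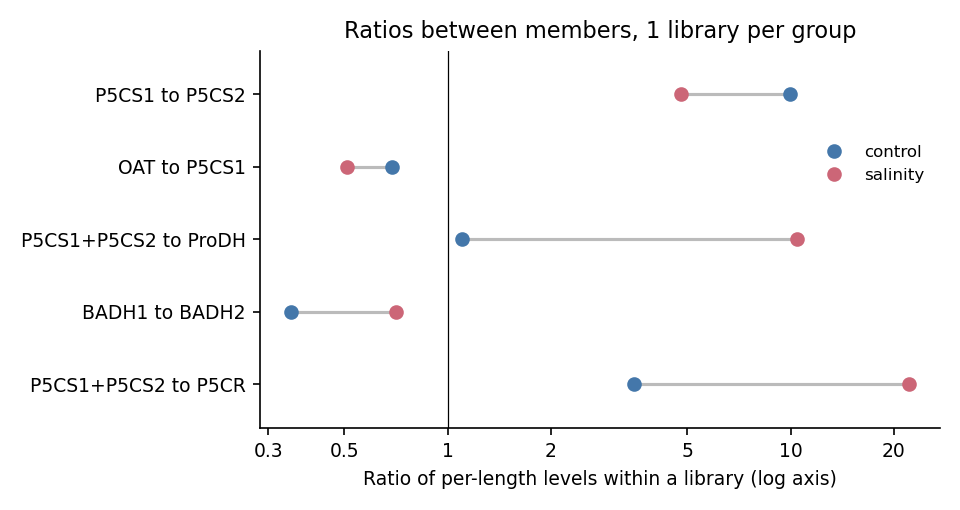
Ratios of per-length levels between members within the control (blue) and the salinity (red) library, on a log axis, with 1 library per group. The ratio of the P5CS pair to ProDH goes from 1.1 to 10.4 and that of BADH1 to BADH2 from 0.35 to 0.708.

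Neither betaine aldehyde dehydrogenase gene was called, and the counting intervals of their ratios lay on opposite sides of no change with TMM scaling. With total counts the BADH1 interval spanned no change (log2 ratio 0.09, interval -0.16 to 0.33). BADH1 (LOC_Os04g39020, chromosome 4, 23171426 to 23176369, minus strand) had 1876 control and 660 salinity counts, 37.88 CPM (35.49 to 40.38) against 47.95 CPM (40.91 to 55.85), with a ratio of 0.34 on the log2 scale (interval 0.09 to 0.58). BADH2 (LOC_Os08g32870, chromosome 8, 20379794 to 20386061, plus strand), the gene whose loss of function gives rice its fragrance, had 5056 control and 880 salinity counts. Its control level of 102.1 CPM (98.14 to 106.1) and salinity level of 63.93 CPM (55.76 to 72.96) give a log2 ratio of -0.67 (interval -0.88 to -0.48). Both genes have 15 exons. The count ratio of BADH1 to BADH2 was 2.02-fold higher in the salinity library (log2 change 1.01, interval 0.69 to 1.33). BADH1 supplied 27.1% of the read pairs of both genes in the control (interval 25.6 to 28.6) and 42.9% in the salinity library (37.9 to 48.0). Their summed level was 140 CPM (control) and 111.9 CPM (salinity), with a log2 ratio of -0.32 (interval -0.48 to -0.17).

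The order of the genes by level per exon length, in transcripts per 1e6 (TPM, computed within each library), was not the same in both libraries. In the control, BADH2 stood first at 90.07 TPM, followed by P5CS1 (46.46 TPM) and ProDH (46.42 TPM), OAT (31.99 TPM) and BADH1 (31.55 TPM), P5CR (14.6 TPM) and P5CS2 (4.67 TPM). P5CS1 and ProDH overlapped in their counting intervals, as did OAT and BADH1. In the salinity library, P5CS1 stood first at 129.8 TPM, followed by OAT (66.16 TPM), BADH2 (49.37 TPM), BADH1 (34.95 TPM), P5CS2 (27.11 TPM), ProDH (15.05 TPM) and P5CR (7.09 TPM). There, only the neighbours BADH1 and P5CS2 overlapped. P5CS1 made up 17.5% of the summed TPM of the 7 genes in control and 39.4% in salinity seedlings, whereas BADH2 made up 33.9% and 15%. If reads in shared bases were not counted, the levels of the overlapping genes are too low. With unshared bases alone as the length, an alternative added after seeing the data, P5CS2 was at 6.71 TPM (control) and 38.93 TPM (salinity). That would place P5CS2 above BADH1 in the salinity library, within the counting interval of BADH1 (29.82 to 40.71 TPM). P5CR was then at 29.69 TPM in the control, within the counting interval of BADH1 there (29.56 to 33.63 TPM). In the salinity library P5CR was at 14.42 TPM, within the interval of ProDH (11.79 to 18.94 TPM).

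**Figure D4:**
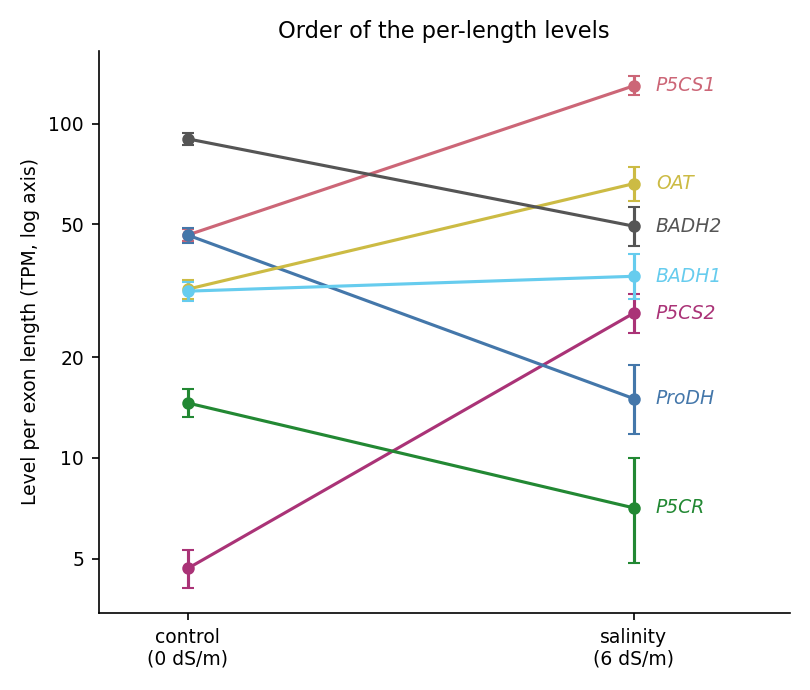
Level per exon length (TPM, log axis) of the 7 genes in each library, with exact 95% Poisson intervals on the read-pair scale. In rank, P5CS1 stands at 2 (control) and 1 (salinity), BADH2 at 1 and 3, and P5CS2 at 7 and 5.

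Glutamate and ornithine, the substrates of proline synthesis, are supplied by nitrogen assimilation and arginine breakdown. Of 21 genes written for these steps, for proline transport and for betaine precursors, 12 had a name that could be matched. Among these, 2 were higher and 1 was lower, and the other 9 stayed within the range, where 7.97% of all gene models tested were higher and 5.17% lower. The median log2 ratio of the 12 was 0.21, against -0.08 for all gene models tested. GS1;3, a gene for cytosolic glutamine synthetase, had 132 control and 808 salinity counts, which are 2.67 and 58.7 CPM. Its log2 ratio of 4.46 (interval 4.05 to 4.88) exceeded that of every member. Its paralogues were within the range, GS1;1 at -0.20 and GS1;2 at -0.04, while GS2, the plastid form, was at 0.95 (interval 0.89 to 1.003). FdGOGAT, the ferredoxin-dependent glutamate synthase gene of leaves, was higher at 1.64 (336.7 CPM in control and 1049 CPM in salinity seedlings). NADH-GOGAT2, for an NADH-dependent form, was lower at -1.59 (62.2 and 20.63 CPM).

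The remaining matched genes lay within the range. Matches covered 2 of 5 genes written for arginine and ornithine and 1 of 3 for transport. None of the genes written for betaine precursors was matched, so that step is not described. The glutamate dehydrogenase genes GDH1 and GDH2 had log2 ratios of -0.51 and -0.81. GDH3 rested on 14 control and 20 salinity counts, and its ratio of 2.35 had an interval of 0.36 to 4.23, but it was called higher from the counts as deposited. The arginase gene, whose enzyme releases ornithine, was at 0.46 (interval 0.23 to 0.69), and the gene for the small subunit of carbamoyl phosphate synthase, an enzyme of arginine synthesis, at -0.61 (interval -0.88 to -0.35). PROT (LOC_Os03g44230), a proline transporter gene 32104 bases from OAT, had levels of 12.68 CPM (control) and 19.47 CPM (salinity) with a ratio of 0.62 on the log2 scale (interval 0.22 to 1.003).

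**Figure D5:**
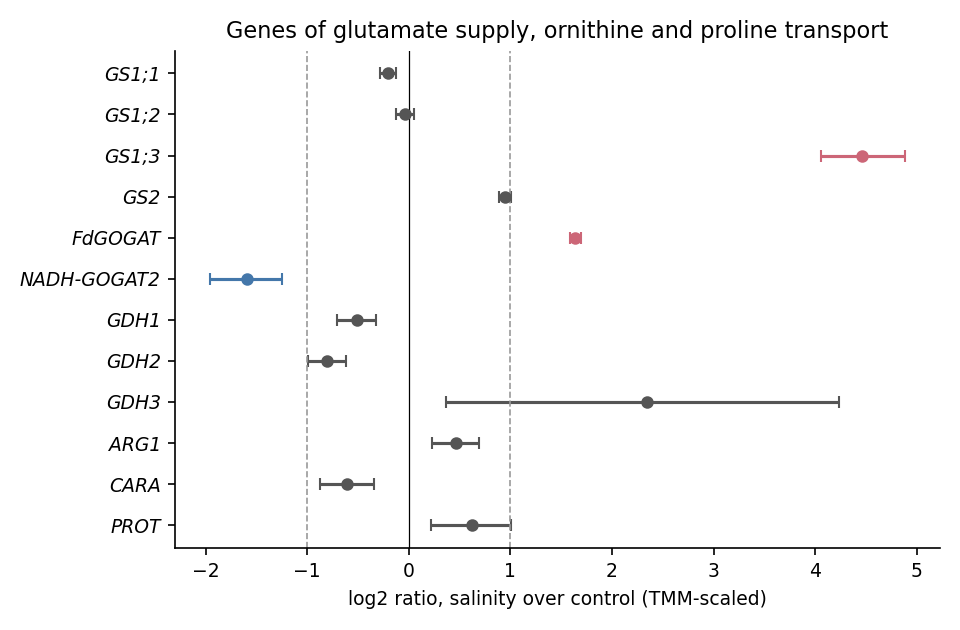
Log2 ratio of salinity over control, with 95% counting intervals, for the 12 matched genes of glutamate supply (GS1;1 to GDH3), arginine and ornithine (ARG1, arginase; CARA, carbamoyl phosphate synthase small subunit) and proline transport (PROT). Dashed lines mark 2-fold. GS1;3 and FdGOGAT lie wholly above the upper line and NADH-GOGAT2 wholly below the lower one. The point of GDH3 (2.35) is also above the upper line, but its interval (0.36 to 4.23) crosses it.

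Of the 14 gene models that lie nearest to the 7 genes on the chromosome without overlapping them, 12 had enough counts to be tested, and 1 of these was higher and 0 were lower, against 7.97% and 5.17% of all gene models tested. P5CS1 ends 459 bases from LOC_Os05g38140 on the opposite strand, which had levels of 82.88 CPM (control) and 160.8 CPM (salinity) with a ratio of 0.96 on the log2 scale (interval 0.82 to 1.09). The models nearest to P5CS2, LOC_Os01g62890 and LOC_Os01g62920, had log2 ratios of 0.20 and -0.60. Those nearest to ProDH, LOC_Os10g40324 and LOC_Os10g40370, were at -0.29 (interval -1.12 to 0.42) and 0.57 (interval -0.25 to 1.31). The higher one was LOC_Os01g71970 near P5CR, at 38.54 CPM (control) and 109.5 CPM (salinity). The gene models nearest in CPM over these 2 libraries were LOC_Os02g54980 for P5CS1 (80.68 and 259.5 CPM), LOC_Os10g01080 for P5CS2 (9.41 and 61.02 CPM) and LOC_Os03g56840 for ProDH (56.29 and 20.92 CPM).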

How the data were processed

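The submitters' processing notes name STAR and featureCounts, beside DESeq2, FastQC and MultiQC. The sources used here give no version, genome build, annotation or counting option. The authors deposited raw counts for each gene model, whose exon positions and exonic length in the same table are used here.

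TMM factors were computed with edgeR 4.0.16 (R 4.3.3) from models whose counts summed to 10 or more. Ratios used a prior count of 0.5 per library. Intervals are exact conditional binomial (Clopper-Pearson) for a ratio, exact Poisson for a level and conditional odds ratios for ratios between genes (pairs rounded to whole numbers). All cover counting error only, since 1 library per group gives no replicate spread. They may be too narrow even for that, since reads amplified by PCR and counted with no molecular identifier may repeat a molecule. The read-pair scale was inferred from the values and is approximate, because 11654 control values were odd and only 70.56% of the salinity values above 0 were multiples of 4 (P5CS1, P5CS2 and ProDH are among those that are not). Depth was 22.7 control and 3.76 salinity read pairs in units of 1e6. No significance test was run, because there was 1 library per group. Python 3.11.15, scipy 1.17.1 and matplotlib 3.10.9 were used for the rest. The size rule was run on simulated counts that held Poisson counting error only, as the intervals assume. That simulation cannot show how the rule behaves with replicate spread or repeated molecules.

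The 7 genes and the gene lists were chosen with earlier results of these data known. Named genes were the members, the listed genes of the pathway, models sharing exons with or adjacent to a member, and the model nearest in CPM. Names were matched to RefSeq (assembly ASM3414082v1) by name and chromosome, within 2000000 bases. Of the members 5 were found, while P5CR and ProDH rest on the given list; 9 of 21 listed pathway genes were not found and were left out. Of the 11 seedling markers 9 were found, all but CAB1R and RBCS2. Scaling, count filter, depth, prior count, size rule and read-pair scale were varied.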

Additional observations from a re-analysis of the deposited data

How the results depend on the processing

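The calls of P5CS1, P5CS2 and ProDH held under other library scalings, count filters, the thinned control and the counts as deposited. Their log2 ratios ran from 1.42 to 1.78, 2.47 to 2.81 and -1.68 to -1.35. OAT ran from 0.99 to 1.32, and its call was lost with total counts (0.99) and with 1 draw of the thinned control (1.27). P5CR (-1.19 to -0.76), BADH1 (0.09 to 0.42) and BADH2 (-0.93 to -0.59) stayed within the range under the same alternatives. An interval beyond 4-fold left 1 gene higher and 0 lower of the 7, by construction. Over all gene models, 2124 were higher and 1377 lower. These counts became 3408 and 2803 with an interval beyond 1.5-fold, 792 and 398 beyond 4-fold, and 4322 and 5556 with a point estimate beyond 2-fold. As deposited, the counts were 2830 higher and 2756 lower, because intervals narrow. Total counts gave 1639 higher and 2127 lower. The share of lower calls thus depends on the scaling. Ratios relative to the median of all gene models, the unshared exon lengths and the ratio of the P5CS pair to P5CR were added after seeing the data. The planned ratio of P5CDH to ProDH was not run. No paired analysis was possible because each group has 1 library. Depth limits P5CR most, at 32 salinity read pairs.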
